A study of Homo sapiens with 12 samples.

Results

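Replication-dependent histone genes are the clustered, mostly intronless genes that supply core and linker histones for new chromatin. They were taken by symbol, as every gene named H2AC, H2BC, H3C or H4C with a number and the linker genes H1-1 to H1-6, with TPM (an abundance per transcript length, scaled to the same total in every library) summed per gene identifier. The rule gave 66 of 60660 genes: 6 for H1, 16 for H2A, 17 for H2B, 13 for H3 and 14 for H4, with 55 on chromosome 6 and 11 on chromosome 1. The RNA libraries came from derivatives of Kelly, a human line of adrenergic neuroblastoma with amplified MYCN. Each derivative carries a doxycycline-inducible short hairpin RNA (shRNA) against RCOR2 (the shRCOR2 line), against RCOR1 (the shRCOR1 line) or non-targeting (the shCTRL line), all in the same MYCN-amplified background; which clone or pool each is was not stated. RCOR2 and RCOR1 encode the corepressor scaffolds RCoR2 and RCoR1, which bring KDM1A (a histone demethylase) and deacetylases together, and the design asks what each contributes to transcription. In each line 2 libraries came from cells given 2 µg/mL doxycycline (induced) and 2 from untreated cells, which makes 6 groups and 12 libraries. The time label reads 72 h for both induced and untreated cells, whereas the treatment protocol names shorter times, so the length of induction is not settled.

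Most transcripts of these genes carry no poly(A) tail. They end in a short stem-loop that binds the protein SLBP, are cut with the U7 small nuclear RNA and are made mainly in S phase, when NPAT switches the clusters on at the histone locus body. H2A pairs with H2B and H3 with H4 in the nucleosome core, and H1 binds the linker DNA. Some members, H1-2 and H2AC6 among them, are also known as polyadenylated transcripts, which cells that stop dividing can keep making.

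Sequence elements differ by class, and 5 promoters are shown because they belong to a high-level or called member of each class. They are RefSeq windows of 300 bases on GRCh38.p14, written 5′ to 3′ on the gene's strand, with capitals marking every match, on either strand, to the 5 motifs searched: the octamer ATTTGCAT, the TATA box TATAAA, the CCAAT box CCAAT, the H1 box AAACACA and the H4 element core GGTCCG.
H1-2 (chr6:26056421-26056720, - strand): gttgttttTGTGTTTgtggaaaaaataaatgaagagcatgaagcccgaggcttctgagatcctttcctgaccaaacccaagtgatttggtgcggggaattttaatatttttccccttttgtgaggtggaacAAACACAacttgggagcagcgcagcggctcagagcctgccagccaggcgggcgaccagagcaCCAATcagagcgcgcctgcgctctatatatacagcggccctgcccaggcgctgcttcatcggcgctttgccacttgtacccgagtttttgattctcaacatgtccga
H2AC6 (chr6:26123922-26124221, + strand): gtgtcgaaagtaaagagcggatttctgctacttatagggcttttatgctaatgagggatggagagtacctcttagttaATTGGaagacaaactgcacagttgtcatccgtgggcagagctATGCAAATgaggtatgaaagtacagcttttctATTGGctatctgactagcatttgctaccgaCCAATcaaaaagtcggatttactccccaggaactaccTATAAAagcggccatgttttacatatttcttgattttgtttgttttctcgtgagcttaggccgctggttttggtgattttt
H2BC12 (chr6:27146806-27147105, - strand): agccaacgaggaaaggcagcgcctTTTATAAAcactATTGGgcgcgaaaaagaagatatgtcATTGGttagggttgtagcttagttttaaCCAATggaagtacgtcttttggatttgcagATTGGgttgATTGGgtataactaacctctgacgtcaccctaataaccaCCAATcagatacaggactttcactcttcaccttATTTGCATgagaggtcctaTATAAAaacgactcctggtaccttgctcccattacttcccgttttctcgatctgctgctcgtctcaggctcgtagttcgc
H3C10 (chr6:27809801-27810100, + strand): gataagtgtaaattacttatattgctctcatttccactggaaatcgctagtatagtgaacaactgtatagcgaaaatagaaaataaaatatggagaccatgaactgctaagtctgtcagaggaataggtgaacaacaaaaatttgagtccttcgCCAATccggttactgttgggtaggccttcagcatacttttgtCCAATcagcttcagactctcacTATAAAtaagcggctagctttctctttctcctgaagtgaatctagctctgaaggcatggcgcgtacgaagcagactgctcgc
H4C14 (chr1:149832407-149832706, + strand): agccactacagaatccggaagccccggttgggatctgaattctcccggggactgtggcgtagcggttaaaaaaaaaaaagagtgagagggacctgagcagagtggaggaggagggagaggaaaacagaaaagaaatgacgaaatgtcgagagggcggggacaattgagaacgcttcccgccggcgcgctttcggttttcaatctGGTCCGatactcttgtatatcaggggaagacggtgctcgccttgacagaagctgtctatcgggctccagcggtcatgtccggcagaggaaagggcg
RefSeq windows matched 61 of the 66 members. The octamer, the site known to be read by OCT1, stood in 11 of 15 H2A and 14 of 17 H2B windows, in 1 of 11 H3 windows and in no H1 or H4 window, against 1.77% of 35116 promoters of the same length. The H1 box stood in all 6 H1 windows (5.64% of all promoters), and the H4 element core, a part of the site known for HINFP, in 11 of 12 H4 windows (11.3% of all promoters). A CCAAT box was in every H1, H2A, H2B and H3 window but in 3 of 12 H4 windows (34.6% of all promoters), and the TATA box was in 42 of 61 (11.5%). In 10 divergent H2A and H2B pairs the windows overlapped, as in H2AC6 with H2BC4, so both genes of a pair share most of these matches. The windows of H4C14 and H4C15 were identical over 300 of 300 bases, and those of H4C11 and H4C12 over 295 of 300.

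The 3′ stem-loop is the other shared element. An annotated GENCODE v29 transcript existed for 64 members by identifier, and in 28 of them the histone stem-loop pattern was found; transcripts annotated short of the loop cannot show it. The loops of 9 members are shown for the contrast between classes and for the genes with the clearest changes, in the DNA alphabet, with the 16 bases of stem and loop in capitals and 5 flanking bases on each side.
H2AC6: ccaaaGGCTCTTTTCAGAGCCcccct
H2AC13: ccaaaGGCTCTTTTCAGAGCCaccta
H2BC5: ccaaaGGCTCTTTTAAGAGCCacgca
H2BC7: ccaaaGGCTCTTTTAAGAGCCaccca
H3C10: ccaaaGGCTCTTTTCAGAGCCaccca
H3C6: ccaaaGGCTCTTCTCAGAGCCaacca
H4C11: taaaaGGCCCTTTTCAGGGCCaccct
H4C8: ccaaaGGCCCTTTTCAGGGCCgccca
H4C14: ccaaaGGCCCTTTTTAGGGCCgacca
The core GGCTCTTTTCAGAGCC was held by 15 members (5 H2A, 7 H2B and 3 H3). The H4 loops came in 2 forms, GGCCCTTTTCAGGGCC in 4 members and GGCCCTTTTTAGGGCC in 3, and no member of another class had either. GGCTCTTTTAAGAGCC was in 4 members, among them H2BC5 and H2BC7, and the cores of H2AC11 and H3C6 were each in 1. In 19 of the 28, the longest annotated transcript with the loop ran at least 200 bases beyond it, as a read-through or polyadenylated form does.

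The members were sparse in these libraries: together they took 0.0153% to 0.0496% of TPM. Of 66 members, 47 reached 1 TPM in 2 or more libraries and were tested (3 of 6 H1, 12 of 16 H2A, 13 of 17 H2B, 9 of 13 H3 and 10 of 14 H4). H2AC1 and H2BC1, known from the testis, are listed at 0 in all 12 libraries, and the other 17 untested members stayed at or below 1.44 TPM (H4C13). Among untreated libraries 4 genes, H2BC12, H1-2, H4C11 and H2AC6, supplied 42.9% of the member TPM and 10 genes 71.1%. H2B and H4 made up the largest class shares, with medians of 30.1% and 28.6% over the 12 libraries, then H2A with 23.6%, H1 with 12.2% and H3 with 5.59%. The ranges of H2B (26.1% to 34.7%) and H4 (23.9% to 30.9%) overlapped, and so did those of H4 and H2A (21.3% to 25.0%), whereas H3 (4.68% to 9.52%) lay below the rest except for its overlap with H1 (8.58% to 16.6%). Selection by poly(A) tail, not given in the sources used here, bears on every level of a histone gene, so these shares describe the libraries and not the histone mRNA of the cell.

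Over the libraries as a whole, depth by the ratio of coverage to FPKM spread from 1 to 2.18 times the shallowest. Mitochondrial transcripts took 13.3% to 21.4% of TPM, and 14758 to 16026 genes reached a TPM of 1. RCOR2 had 17.7 and 20.5 TPM in induced against 55.4 and 49.9 TPM in untreated shRCOR2 cells (log2 change −1.42 ± 0.11 SE, limma adjusted p = 0.000403). RCOR1 had 4.80 and 5.07 TPM in induced against 8.32 and 9.08 TPM in untreated shRCOR1 cells (−0.71 ± 0.12, limma adjusted p = 0.0109), and RCOR2 fell in that line too (−0.94 ± 0.11, limma adjusted p = 0.00278). The adrenergic markers HAND2, GATA3, ISL1, TH, DBH and MYCN were at 27.6 TPM or more in every library. PTPRC, PECAM1 and S100B, of leukocytes, endothelium and Schwann cells, were at most 0.182 TPM, and EPCAM, of epithelium, ran from 0.143 to 4.13 TPM. The mesenchymal markers VIM, FN1 and COL1A1 summed to 69.1 and 86.8 TPM in induced and 91.7 and 194 TPM in untreated shRCOR2 cells, to 214 and 417 TPM in induced and 91.1 and 151 TPM in untreated shRCOR1 cells, and to 134 and 397 TPM in induced and 123 and 333 TPM in untreated shCTRL cells. In bulk RNA, fewer cells in S phase and less histone RNA per cell cannot be told apart.

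With the RCOR2 shRNA induced, 15 of the 47 members tested rose, from every class but H1, and the summed TPM of each class was higher. The members summed to 430 and 496 TPM in induced shRCOR2 cells, against 258 and 224 TPM in untreated ones, a 1.92-fold difference in means. By class the fold was 2.43 for H3, 2.05 for H4, 2.03 for H2A, 1.98 for H1 and 1.64 for H2B, and in every class both induced libraries lay above both untreated ones; the H1 sum was mostly H1-2, which was not called without the block. Of the 47 members tested, 15 rose and none fell by limma (adjusted p below 0.05), against 7.81% of the 16842 genes called higher and 6.47% called lower. The 15 include the near-copies H4C14 with H4C15, H3C14 with H3C15 and H2AC18 with H2AC19, each pair better read as 1 signal. They also include H2BC7, which passed the filter on low values only through the induced shRCOR2 libraries. The median log2 change of the 47 was 0.74, against 0.07 over all genes tested, and 46 of 47 changes were positive. With the replicate number as a block, 26 rose and none fell, against 21.4% of genes called higher and 14.8% called lower. Both induced libraries lay above both untreated ones for 42 of 47 members and below for none, where 37.6% of all genes tested lay above.

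**Figure D1:**
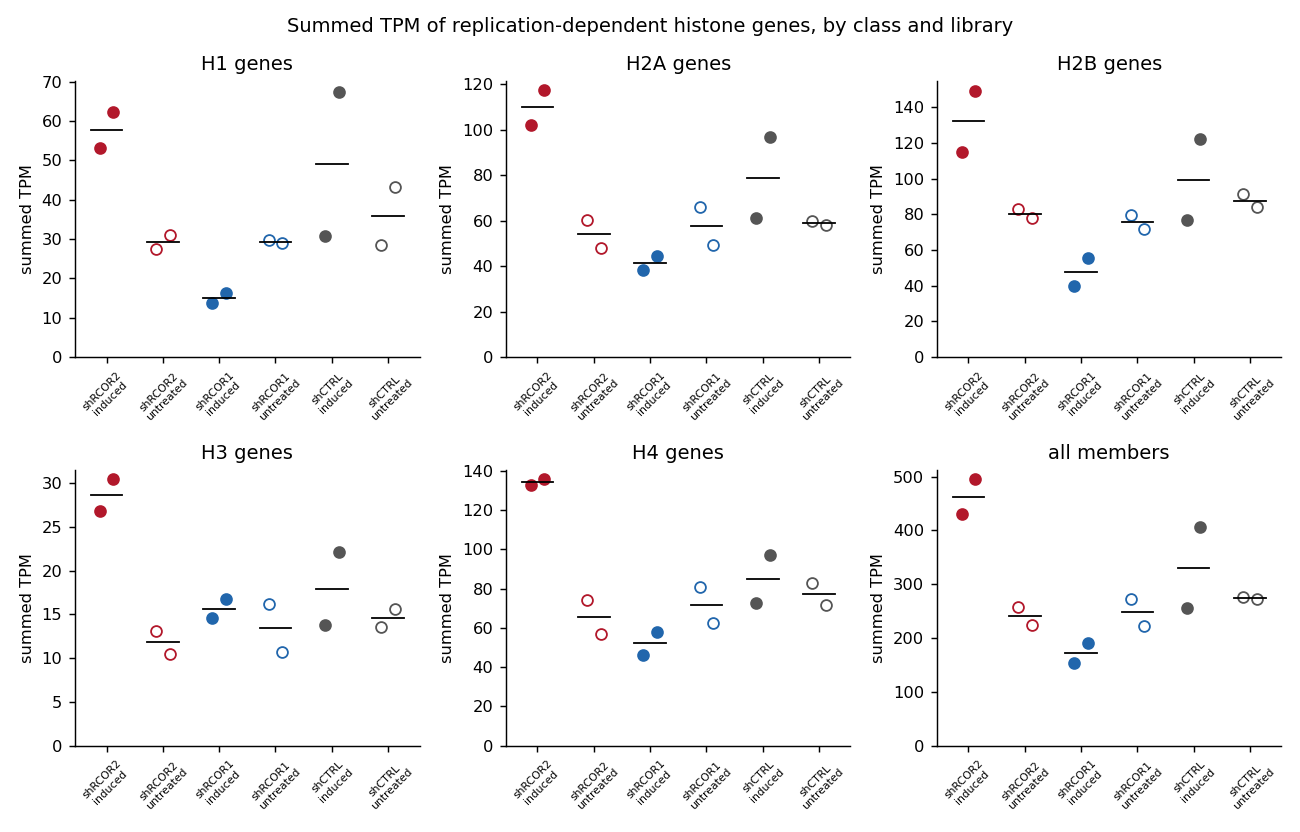
Summed TPM of the members of each histone class and of all 66 members (y axis, TPM) in each library, by line and treatment; filled points are induced, open points untreated, and the bar is the mean of 2 libraries. Both induced shRCOR2 libraries (430 and 496 TPM for all members) lie above, and both induced shRCOR1 libraries (153 and 191 TPM) below, every untreated library, while the induced shCTRL libraries (255 and 406 TPM) lie apart from each other.

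On the log2(TPM + 1) scale the 4 largest called changes were those of H4 genes. H4C14, on chromosome 1 (149832659 to 149839767, plus strand, in the files' GRCh38 coordinates), had 34.1 and 34.6 TPM in induced shRCOR2 cells and 11.2 and 9.34 TPM in untreated ones, a log2 change of 1.65 ± 0.30 (SE, n = 2 libraries each; limma adjusted p = 0.00933). H4C15, its near-copy, had 25.0 and 27.5 TPM in induced and 12.1 and 7.99 TPM in untreated cells (1.32 ± 0.30, limma adjusted p = 0.0236). These genes share 97.5% and 97.2% of their 50-base transcript stretches, so the split of reads between them is uncertain and they are better read as a pair. H4C3 (chromosome 6, 26103933 to 26104337), had 5.37 and 6.30 TPM in induced and 1.64 and 1.61 TPM in untreated cells (1.38 ± 0.18, limma adjusted p = 0.00296). H4C8 had 4.77 and 7.36 TPM in induced and 2.02 and 1.44 TPM in untreated cells (1.36 ± 0.34, limma adjusted p = 0.0308). In each of these 4 genes both induced libraries were above both untreated ones. H4C11 and H4C12, which have the highest means of the class and also share most of their sequence, were not called without the block (0.42 ± 0.15 and 0.52 ± 0.17, limma adjusted p = 0.102 and 0.0778) and were called with it (limma adjusted p = 0.0172 and 0.0126).

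Of the 9 H3 genes tested 4 rose. H3C6 had 4.83 and 7.29 TPM in induced shRCOR2 cells and 1.70 and 1.91 TPM in untreated ones (1.31 ± 0.36, limma adjusted p = 0.0424). H3C10 (chromosome 6, 27810064 to 27811300) had 6.82 and 9.61 TPM in induced and 3.89 and 2.204 TPM in untreated cells (1.20 ± 0.28, limma adjusted p = 0.0244). The near-copies H3C14 and H3C15, which share every 50-base stretch, had 1.52 to 1.83 TPM in induced and 0.528 to 0.599 TPM in untreated cells (0.75 ± 0.16 and 0.85 ± 0.17, limma adjusted p = 0.0192 and 0.0133). The induced libraries were the higher ones without overlap in all 4.

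Among H2A genes 5 of 12 rose. H2AC13 (chromosome 6, 27808199 to 27808701) had 5.53 and 5.79 TPM in induced shRCOR2 cells, against 2.42 and 2.31 TPM in untreated ones (0.99 ± 0.15, limma adjusted p = 0.00468), with libraries of each group close together and far from the other group. H2AC8 had 4.81 and 4.60 TPM in induced and 2.26 and 1.53 TPM in untreated cells (0.99 ± 0.20, limma adjusted p = 0.0163). H2AC11 had 5.73 and 7.90 TPM in induced and 3.11 and 2.89 TPM in untreated cells (0.95 ± 0.26, limma adjusted p = 0.0457). H2AC18 and H2AC19, which share 100% and 97.1% of their 50-base stretches, rose together by 1.03 ± 0.25 and 1.01 ± 0.25, to 14.5 and 16.6 TPM for H2AC18 in induced cells against 7.995 and 6.31 TPM in untreated ones (limma adjusted p = 0.0276 and 0.0306). H2AC6 (chromosome 6, 26124145 to 26139116), the H2A gene with the highest level, had 35.3 and 47.2 TPM in induced and 20.2 and 16.9 TPM in untreated cells. Its change of 1.10 ± 0.36 was larger than that of H2AC13, but its libraries spread more and it was called only with the block (limma adjusted p = 0.0725 without and 0.0251 with it). H2AC13 shares 62.3% of its stretches with H2AC14, which was called only with the block (0.76 ± 0.27, limma adjusted p = 0.102 without and 0.00511 with it).

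H2B and H1 had the fewest calls. H2BC5 had 28.8 and 35.0 TPM in induced shRCOR2 cells and 17.3 and 12.95 TPM in untreated ones (1.04 ± 0.26, limma adjusted p = 0.0321). The low H2BC7 had 1.39 and 1.59 TPM in induced and 0.517 and 0.295 TPM in untreated cells (0.83 ± 0.19, limma adjusted p = 0.0224). It reached 1 TPM only in the induced shRCOR2 libraries. It thus entered the test through the group where it was high, and its calls are not independent of that filter. H2BC12, the member with the highest level, had 52.2 and 70.7 TPM in induced and 41.6 and 42.7 TPM in untreated cells, which do not overlap, with a change of 0.52 ± 0.21 (limma adjusted p = 0.142, and 0.0181 with the block). H1-2 (chromosome 6, 26055740 to 26056470), which made up most of the H1 signal, had 49.8 and 59.0 TPM in induced and 24.9 and 29.3 TPM in untreated cells (0.98 ± 0.35, limma adjusted p = 0.0950, and 0.0125 with the block). The other tested linker genes had smaller values, H1-4 with 0.29 ± 0.25 and H1-5 with 0.20 ± 0.19, and H2BC14 gave the only negative value of the 47 (−0.15 ± 0.33).

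Fewer members were called with any 1 of the 4 shRCOR2 libraries left out, in fits where the lone library is assumed to vary like the other groups. Calls over all genes fell as well without induced replicate 1, the fit with the fewest calls over all genes. The log2 ratio of the member totals ran from 0.84 to 1.05 with 1 of these 4 left out. H2AC13 and H4C3 were called in all 12 fits with 1 library left out and under all 10 other settings tried.

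**Figure D2:**
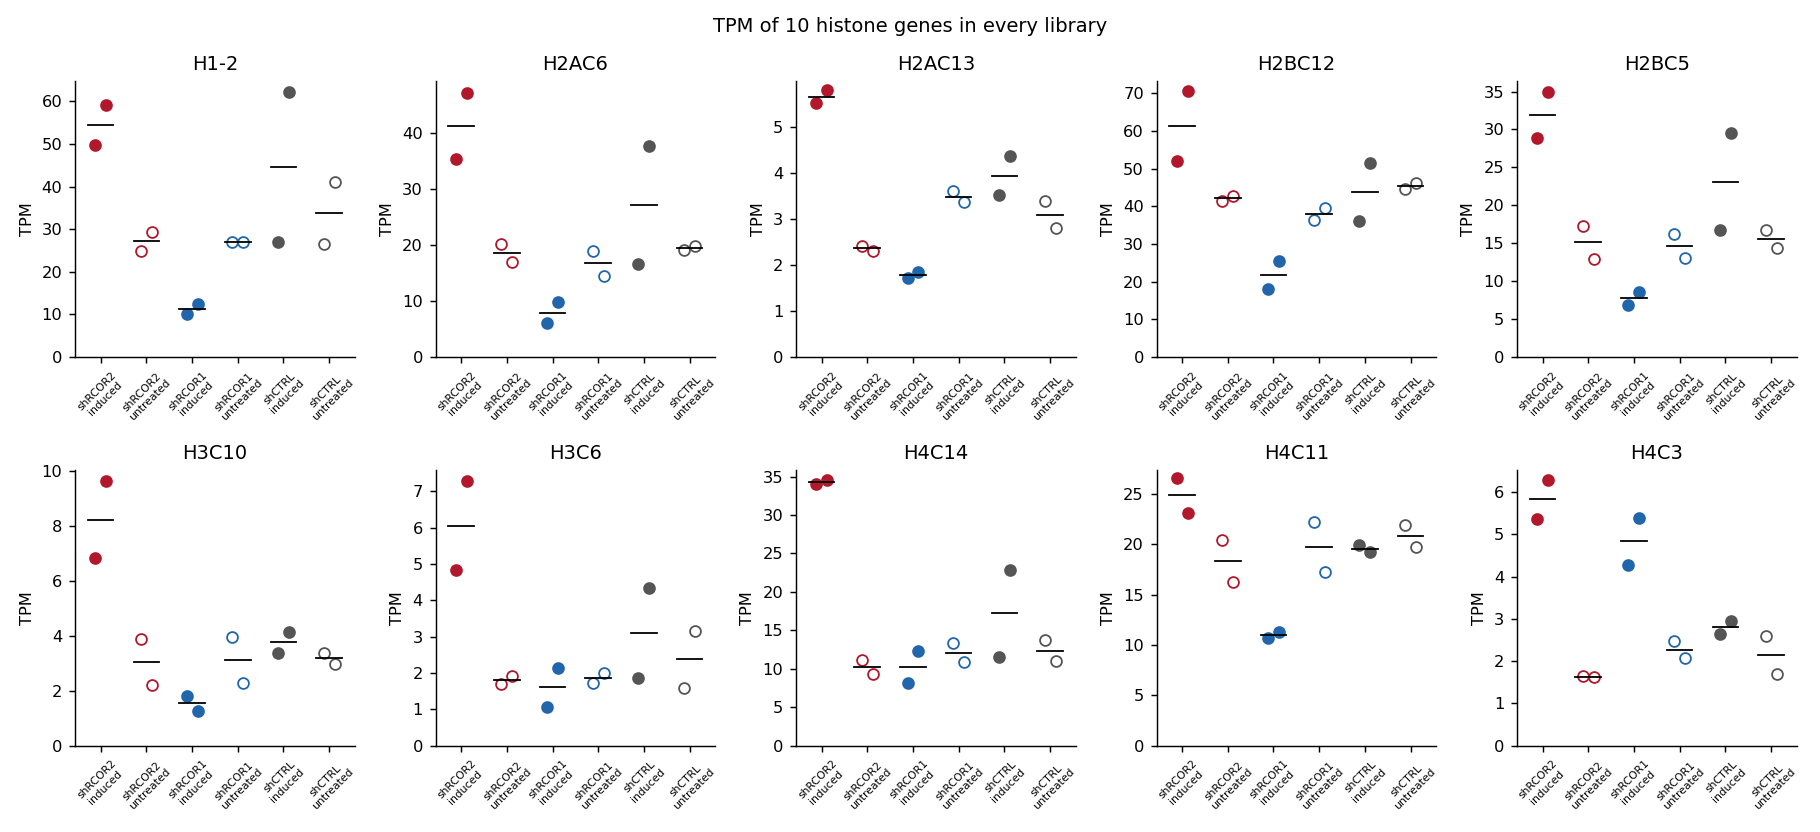
TPM (y axis, from 0, with its own scale in each panel) of 10 members in every library, by line and treatment; filled points are induced, open points untreated, and the bar is the mean of 2 libraries. Induced shRCOR2 libraries are above untreated ones in all 10 panels, and induced shRCOR1 libraries are below untreated ones for H1-2, H2AC6, H2AC13, H2BC12, H2BC5, H3C10 and H4C11 but above them for H4C3.

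With the RCOR1 shRNA induced, 3 of the 47 members tested fell, H2AC13 and the near-copies H4C11 and H4C12, and 1 rose, H4C3. The members summed to 153 and 191 TPM in induced shRCOR1 cells, against 272 and 223 TPM in untreated ones, a ratio of 0.694. The ratio was 0.514 for H1, 0.631 for H2B, 0.718 for H2A and 0.728 for H4, without overlap between the groups, and 1.16 for H3, where they overlapped. These calls by limma compare with 4.98% of all genes called higher and 3.64% called lower. With the near-copies H4C11 and H4C12 read as 1 signal, the count called lower is near that background, and the count called higher is not above it. With the block 2 rose and 9 fell, against 15.4% and 12.1% of all genes. The median log2 change was −0.23, against 0.04 over all genes. Both induced libraries lay above both untreated ones for 6 members (29.4% of all genes) and below for 13 (23.7%), the latter near the share of all genes.

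H4C11 (chromosome 6, 27824092 to 27824480) had 10.7 and 11.2 TPM in induced shRCOR1 cells and 22.2 and 17.3 TPM in untreated ones (−0.78 ± 0.15, limma adjusted p = 0.0176). Its near-copy H4C12 had 10.7 and 10.3 TPM in induced and 21.6 and 16.2 TPM in untreated cells (−0.78 ± 0.17, limma adjusted p = 0.0271), and as H4C12 shares every 50-base stretch with H4C11 these are not separate measurements. H2AC13 fell to 1.71 and 1.84 TPM in induced cells, against 3.60 and 3.37 TPM in untreated ones (−0.69 ± 0.15, limma adjusted p = 0.0231). In all 3 the induced libraries were below the untreated ones. H4C3 was the exception and rose, with 4.28 and 5.39 TPM in induced and 2.47 and 2.08 TPM in untreated cells (0.83 ± 0.18, limma adjusted p = 0.0270), so it is the member that was called higher in both knockdown lines.

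Several of the most abundant members were called lower only with the block. H1-2 had 10.1 and 12.5 TPM in induced shRCOR1 cells and 27.1 and 26.9 TPM in untreated ones, the largest negative change of the set (−1.19 ± 0.35, limma adjusted p = 0.0693 without and 0.00693 with the block). H2AC6 had 6.03 and 9.83 TPM in induced and 19.0 and 14.4 TPM in untreated cells (−1.01 ± 0.36, limma adjusted p = 0.123 and 0.0434). H2BC12 had 18.01 and 25.4 TPM in induced and 36.4 and 39.5 TPM in untreated cells (−0.80 ± 0.21, limma adjusted p = 0.0535 and 0.00365). H2BC5 had 6.92 and 8.62 TPM in induced and 16.2 and 13.1 TPM in untreated cells (−0.84 ± 0.26, limma adjusted p = 0.0884 and 0.0387). Each of these 4 showed induced libraries wholly below untreated ones. H2BC11 (−0.82 ± 0.22) and H4C9 (−0.58 ± 0.24) were also called lower with the block, and H3C1 was called higher with it, at 1.14 and 1.77 TPM in induced and 0.652 and 0.198 TPM in untreated cells (0.79 ± 0.21, limma adjusted p = 0.0562 and 0.0211). H1-4, at 2.60 and 2.32 TPM in induced and 1.28 and 1.10 TPM in untreated cells, ran opposite to H1-2 but was not called in either fit (0.66 ± 0.25, limma adjusted p = 0.146 and 0.0763).

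Of the 15 members called in the shRCOR2 line, 12 were called in the shRCOR1 line neither with nor without the block. H3C10 had 1.82 and 1.27 TPM in induced and 3.96 and 2.29 TPM in untreated shRCOR1 cells (−0.67 ± 0.28, limma adjusted p = 0.181), lower without overlap. H4C14 had 8.09 and 12.3 TPM in induced and 13.3 and 10.9 TPM in untreated cells (−0.25 ± 0.30), with overlap. H2AC18 had 5.44 and 8.26 TPM in induced and 8.84 and 7.24 TPM in untreated shRCOR1 cells (−0.22 ± 0.25), and H2AC19 ran with it (−0.23 ± 0.25). H4C15 had 5.80 and 9.09 TPM in induced and 10.8 and 7.53 TPM in untreated cells (−0.28 ± 0.30), and H4C8 had 0.605 and 1.62 TPM in induced and 2.06 and 1.25 TPM in untreated cells (−0.36 ± 0.34). H3C6 had 1.07 and 2.14 TPM in induced and 1.71 and 1.99 TPM in untreated cells (−0.16 ± 0.36). The groups of H4C14 and of these 5 genes overlapped in this line. H2AC11, at 1.81 and 2.07 TPM in induced and 3.01 and 2.81 TPM in untreated cells (−0.41 ± 0.26), and H2BC7, at 0.435 and 0.196 TPM in induced and 0.741 and 0.496 TPM in untreated cells (−0.30 ± 0.19), did not overlap and were lower. H3C14 (0.31 ± 0.16) and H3C15 (0.29 ± 0.17), at 0.770 to 1.20 TPM in induced and 0.541 to 0.677 TPM in untreated cells, did not overlap and were higher, and H2AC8 differed little (2.201 and 2.39 TPM in induced against 2.33 and 2.57 TPM in untreated cells, −0.06 ± 0.20).

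By level, as a description with no test, all 12 members with a mean of at least 5 TPM over the 12 libraries had negative changes in the shRCOR1 line (median −0.62, −1.19 to −0.22), and all 12 had positive ones in the shRCOR2 line (median 1.02). Of the 35 below 5 TPM, 15 were positive and 20 negative in the shRCOR1 line (median −0.10), while 34 were positive in the shRCOR2 line (median 0.58). The split at 5 TPM was chosen after the values were seen, and its levels include the induced libraries. The 12 include near-copy pairs, and several of the 12, such as H4C14 and H2AC18, had overlapping groups. The log2(TPM + 1) scale also understates the changes of low members, so the medians of the 2 levels are not directly comparable. With 0.1 added in place of 1, the median of all 47 in the shRCOR2 line was 1.03 in place of 0.74. Depth was 1.29 and 1.23 times the shallowest library in induced and 2.18 and 1.03 times in untreated shRCOR1 cells, and the part of depth in the spread of the sparse members was not tested. The 4 calls depend on single libraries: fewer members were called when any 1 of the 4 shRCOR1 libraries was left out. Calls over all genes fell as well without untreated replicate 1, the fit with the fewest calls over all genes. The log2 ratio of the member totals ran from −0.70 to −0.37 with 1 of these 4 left out. More members were called without either induced shCTRL library, which enters this comparison only through the shared estimate of spread.

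**Figure D3:**
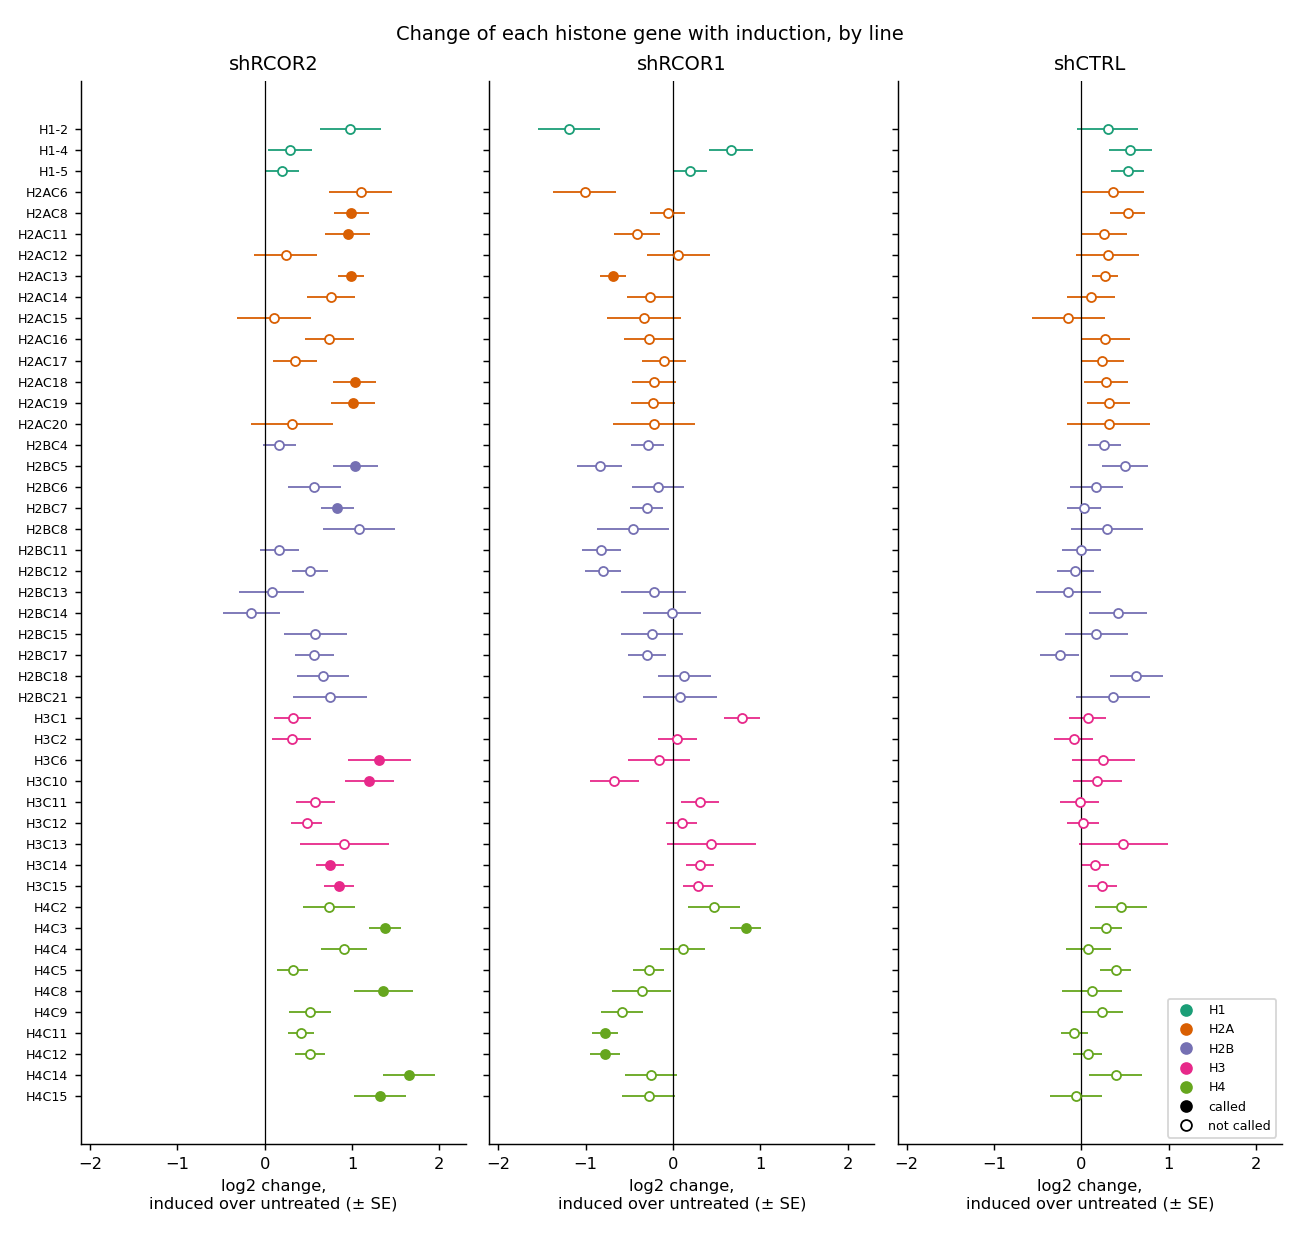
Log2 change of induced over untreated cells (x axis, bars ± SE from limma on log2(TPM + 1), 2 libraries a group) for each of the 47 members tested, in rows by class, in the shRCOR2, shRCOR1 and shCTRL lines; filled points have an adjusted p below 0.05. In the shRCOR2 line 46 of 47 points lie right of 0 and 15 are filled, in the shRCOR1 line 4 are filled, and in the shCTRL line none is.

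Doxycycline with the control shRNA gave no called member. In shCTRL cells the members summed to 255 and 406 TPM in induced libraries and 276 and 273 TPM in untreated ones, so that 1 induced library lay below and the other far above the untreated pair. No member was called by limma in either direction (0% of all genes called higher, 938 genes at an unadjusted p below 0.05, smallest member adjusted p = 0.871). The block left 0 members called, against 0.0297% of all genes called higher with it. The median change was 0.25 with all libraries (−0.02 over all genes) and 12 of 47 members had both induced libraries above both untreated ones (7.99% of all genes). H1-2 had 26.9 and 62.2 TPM in induced and 26.5 and 41.0 TPM in untreated shCTRL cells. H4C14 had 11.6 and 22.8 TPM in induced and 13.7 and 10.96 TPM in untreated cells. The second induced library was the highest of its line in both genes, and for H1-2 the second untreated library was also above the first. The median change of the members tested was −0.02 without the second induced library and 0.40 without the first. That library also had the highest mesenchymal marker sum of its line (397 TPM, against 333 TPM in untreated replicate 2) and was 1.80 times as deep as the shallowest library, against 1.18 times for its partner; their part in the histone values was not tested. H2AC6 had 16.6 and 37.7 TPM in induced and 19.0 and 19.8 TPM in untreated shCTRL cells, and H2BC5 had 16.7 and 29.5 TPM in induced and 16.7 and 14.3 TPM in untreated ones. H2BC12 had 36.0 and 51.5 TPM in induced and 44.7 and 46.2 TPM in untreated shCTRL cells (−0.07 ± 0.21). The pair H4C11 and H4C12 did not share the high second library, with 19.9 and 19.2 TPM for H4C11 in induced and 21.9 and 19.7 TPM in untreated cells (−0.08 ± 0.15). The members called in every fit of the shRCOR2 line were H2AC13, at 3.51 and 4.38 TPM in induced and 3.38 and 2.81 TPM in untreated shCTRL cells (0.27 ± 0.15), and H4C3, at 2.65 and 2.95 TPM in induced and 2.59 and 1.71 TPM in untreated ones (0.28 ± 0.18), and both had induced libraries above untreated ones. H3C10 had 3.37 and 4.14 TPM in induced and 3.38 and 2.97 TPM in untreated shCTRL cells (0.18 ± 0.28), with overlap.

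Set against the shCTRL change, neither knockdown line had a called member without the block. For the shRCOR2 change minus the shCTRL change, 0 of 47 members were called by limma (0.891% of all genes called higher, smallest member adjusted p = 0.0699), 11 had an unadjusted p below 0.05, and the median difference was 0.48. With the block 3 were called higher (8.93% of all genes): H4C3 (1.09 ± 0.24, limma adjusted p = 0.0225), H3C6 (1.06 ± 0.28, limma adjusted p = 0.0390) and H2AC13 (0.72 ± 0.19, limma adjusted p = 0.0381). For the shRCOR1 change minus the shCTRL change 0 of 47 were called by limma (0.439% of all genes called lower, smallest member adjusted p = 0.0690), 1 was higher and 10 lower at an unadjusted p below 0.05, and the median difference was −0.41. With the block 6 were called lower (3.57% of all genes): H1-2 (−1.50 ± 0.33), H2BC5 (−1.33 ± 0.36), H2AC13 (−0.96 ± 0.19), H4C12 (−0.85 ± 0.18), H2BC12 (−0.72 ± 0.19) and H4C11 (−0.70 ± 0.16), with limma adjusted p between 0.0180 and 0.0493. Both medians moved with either induced shCTRL library: they were 0.33 and −0.78 without replicate 1, and 0.79 and −0.20 without replicate 2. These comparisons share the shCTRL libraries. Before induction 0 members were called in untreated shRCOR2 or untreated shRCOR1 against untreated shCTRL cells by limma (0% of all genes called higher in the shRCOR2 case, 123 and 114 genes at an unadjusted p below 0.05), with median differences of −0.14 and −0.08.

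The shRCOR2 and shRCOR1 lines share no library, and the difference between their changes is a comparison independent of shCTRL in its libraries. By limma 11 of 47 were called higher for the shRCOR2 change minus the shRCOR1 change and none lower, against 5.2% of all genes called higher and 5.97% lower; with the block 22 were called higher, against 15.7%. The median difference was 0.82 (0.04 over all genes), and 43 of 47 were positive. H1-2 had the largest, 2.17 ± 0.49 (limma adjusted p = 0.0255), made of 0.98 in the shRCOR2 line and −1.19 in the shRCOR1 line. H2AC6 followed with 2.11 ± 0.50 (limma adjusted p = 0.0309), H4C14 with 1.90 ± 0.42 (0.0233), H3C10 with 1.88 ± 0.39 (0.0194) and H2BC5 with 1.87 ± 0.37 (0.0156). H2AC13 had the difference furthest from its error, 1.68 ± 0.21 (limma adjusted p = 0.00328). Of the 11, only H2AC13 was called in every fit with a library left out, so the other calls, that of H1-2 among them, depend on single libraries. H4C15 (1.60 ± 0.43), H2BC12 (1.32 ± 0.30), H4C12 (1.30 ± 0.24), H4C11 (1.20 ± 0.22) and H2BC7 (1.13 ± 0.27) complete the set. H2BC7 passed the filter on low values only through the induced shRCOR2 libraries, and H4C14 with H4C15 and H4C11 with H4C12 are near-copies. H4C3 was not called (0.55 ± 0.26, limma adjusted p = 0.221), and H3C1 had the most negative value (−0.47 ± 0.30). Fewer members were called with any library of these 2 lines left out, and more with either induced shCTRL library left out. Calls over all genes moved too, with the fewest without induced shRCOR2 replicate 1 and the most without induced shCTRL replicate 2.

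**Figure D4:**
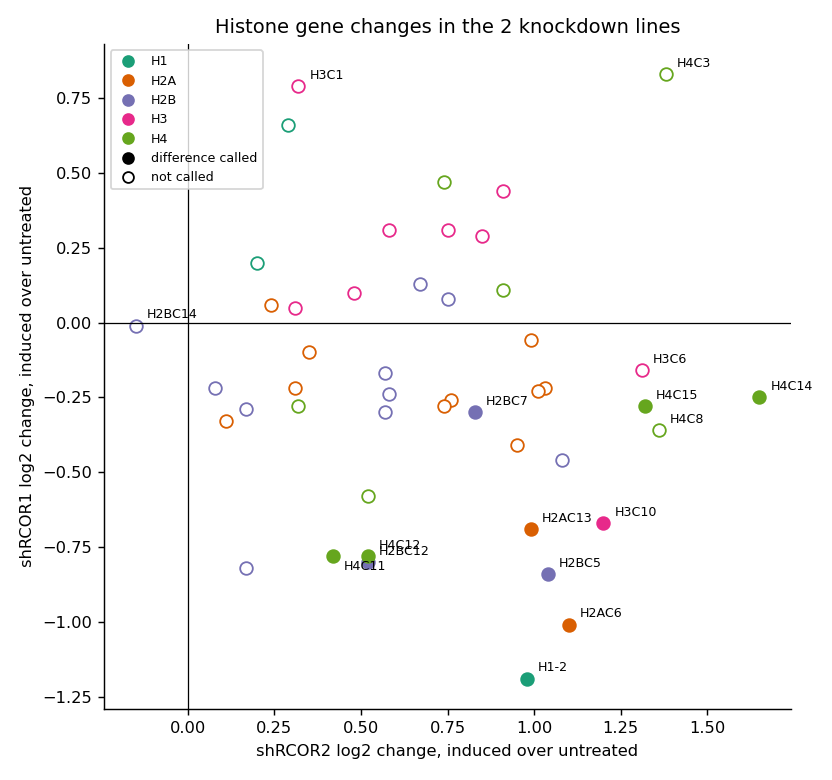
Log2 change of induced over untreated cells in the shRCOR2 line (x axis) and the shRCOR1 line (y axis) for each of the 47 members tested, coloured by class; filled points are the 11 whose difference between lines had an adjusted p below 0.05. The filled points lie right of 0 and below 0, with H1-2 lowest (0.98, −1.19) and H4C14 furthest right (1.65, −0.25); H4C3 stands at the upper right (1.38, 0.83).

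The transcript features of the members were set beside these changes as a description. Members were split by whether the longest annotated transcript with the loop ran at least 200 bases beyond it. Those that did (17 tested) had a median change of 0.85 in the shRCOR2 line and −0.28 in the shRCOR1 line. Those that did not (9 tested) had 0.99 and −0.23. Transcripts without the loop were not measured, so H2BC5 (39 bases) and H2BC4 (116 bases) stand in the second group though known as polyadenylated too. The 6 members long known to be made as polyadenylated transcripts too were H1-2, H2AC6, H2BC4, H2BC5, H2BC12 and H2BC21. Their medians were 0.86, −0.82 and 0.33 in the shRCOR2, shRCOR1 and shCTRL lines, and the other 41 tested had 0.67, −0.22 and 0.24. H2BC12, H1-2, H2AC6 and H2BC5 are among the members with the highest levels. The log2(TPM + 1) scale understates changes of low members, so polyadenylation and level cannot be told apart here. Of the 6, H2BC5 rose in the shRCOR2 line (7.81% of all genes called higher), where 4 were called higher with the block (21.4%). None was called in the shRCOR1 line (3.64% of all genes called lower), where 4 were called lower with the block (12.1%). The difference between the lines was called higher for 4 (5.2% of all genes). In the divergent pairs with both genes tested, 8 in all, the H2A gene had the larger change in the shRCOR2 line in 4 and the H2B gene in 4. H2AC6 with 1.10 and its partner H2BC4 with 0.17 lay far apart, and H2AC8 with 0.99 and H2BC8 with 1.08 lay close, although each pair has 1 shared promoter window. No test was made between these groupings.

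Of the factors that make and process histone mRNA, NCBP1 and HINFP fell in the shRCOR2 line and CPSF2 in the shRCOR1 line. Of 31 listed, including SLBP, NPAT, the U7 proteins and the cap-binding complex, 2 fell with the RCOR2 shRNA and 1 with the RCOR1 shRNA by limma and none rose, with medians of 0.05 and 0.03; with the block 6 rose and 4 fell, and 4 fell. Among all genes 6.47% and 3.64% were called lower in these lines, so the counts without the block are near that background. With the block 21.4% of all genes were called higher and 14.8% lower in the shRCOR2 line, and 12.1% lower in the shRCOR1 line. The block counts are near these shares too. NCBP1, the large cap-binding subunit, had 13.8 and 14.4 TPM in induced and 20.3 and 21.1 TPM in untreated shRCOR2 cells (−0.52 ± 0.11, limma adjusted p = 0.0192). HINFP, the activator of H4 genes, had 9.49 and 11.04 TPM in induced and 14.3 and 13.5 TPM in untreated shRCOR2 cells (−0.40 ± 0.11, limma adjusted p = 0.0465), in the line where 4 H4 genes rose. CPSF2, a subunit of the histone cleavage complex, had 11.6 and 12.4 TPM in induced and 15.7 and 17.3 TPM in untreated shRCOR1 cells (−0.43 ± 0.11, limma adjusted p = 0.0411).

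Replication-independent variants are histones made outside S phase, and 14 were listed. By limma 2 rose and 1 fell with the RCOR2 shRNA, and 2 fell with the RCOR1 shRNA; with the block 5 rose and 4 fell, and 5 fell. Over all genes 7.81% were called higher and 6.47% lower with the RCOR2 shRNA, and 3.64% lower with the RCOR1 shRNA (21.4%, 14.8% and 12.1% with the block). H2AJ, a variant close to canonical H2A, had 15.7 and 11.5 TPM in induced and 4.60 and 6.38 TPM in untreated shRCOR2 cells (1.17 ± 0.24, limma adjusted p = 0.0161). H2AZ2, an H2A.Z gene, went the other way, with 97.0 and 88.9 TPM in induced and 219 and 193 TPM in untreated shRCOR2 cells (−1.14 ± 0.19, limma adjusted p = 0.00672). H1-10 had 491 and 358 TPM in induced and 796 and 639 TPM in untreated shRCOR1 cells (−0.77 ± 0.19, limma adjusted p = 0.0459).

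No listed gene of DNA replication was called higher in the shRCOR2 line, where 15 histone members were. Of 43 S-phase genes listed, 3 fell and none rose in the shRCOR2 line by limma, 1 fell in the shRCOR1 line and 0 were called in the shCTRL line, with medians of −0.39, −0.33 and −0.39. With the block 14 fell in the shRCOR2 line, and 1 rose and 10 fell in the shRCOR1 line. The shares of all genes called lower were 6.47% and 3.64% in the shRCOR2 and shRCOR1 lines, so the counts without the block are near the background. With the block these shares were 14.8% and 12.1%, and the 14 and 10 of 43 called lower were above them. The 1 called higher with the block in the shRCOR1 line was below the 15.4% of all genes. No test of the list was made, as it was chosen with earlier results known. MCM4, a subunit of the replicative helicase, had 28.9 and 27.6 TPM in induced and 117 and 92.6 TPM in untreated shRCOR2 cells (−1.85 ± 0.33, limma adjusted p = 0.00964). RPA1, which coats single-stranded DNA, fell by 0.88 ± 0.14 (limma adjusted p = 0.00542) and RFC1, a clamp loader subunit, fell by 0.42 ± 0.09 (limma adjusted p = 0.0162) in the same line. Among 20 histone chaperones 1 rose and 3 fell with the RCOR2 shRNA by limma, where 7.81% and 6.47% of all genes did. With the RCOR1 shRNA 0 were called, where 4.98% and 3.64% of all genes were called higher and lower. Under the block, the RCOR2 shRNA gave 1 chaperone higher and 4 lower, beside 21.4% and 14.8% of all genes. The RCOR1 shRNA gave 1 higher and 1 lower under the block, beside 15.4% and 12.1% of all genes. Of the 3 called lower without the block, RBBP7 (−1.03 ± 0.10, limma adjusted p = 0.000885) handles H3 and H4. So does ASF1A (−0.85 ± 0.16, limma adjusted p = 0.0106), and the other was RBBP4 (−0.35 ± 0.08, limma adjusted p = 0.0234). SUPT6H, an elongation factor, rose in the same comparison by 0.45 ± 0.10 (limma adjusted p = 0.0184). The medians of the S-phase list were negative in all 3 lines, while those of the histone members were positive, negative and positive in the shRCOR2, shRCOR1 and shCTRL lines; the part of the cell cycle in the histone values was not tested.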

How the data were processed

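Total RNA of Kelly derivatives went into directional NEBNext Ultra II libraries; what preceded it (poly(A) selection or ribosomal depletion), annotation release, strandedness in counting and treatment of multiply aligned reads: not given in the sources used here. Reads were trimmed with Trim Galore 0.6.7, aligned with HISAT2 2.2.1 and quantified with StringTie 2.1.7, and the builds named are GRCh38 and hg38, per the submitters' processing notes. Each library has 1 deposited gene table with TPM, FPKM and coverage signal per gene, made by the authors. TPM were analysed as deposited, FPKM served as an alternative, and the ratio of deposited coverage to FPKM gave relative depth. The files hold no read counts, so read depth is unknown and no counting interval is given.

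A gene entered the test at 1 TPM or more in 2 or more libraries, which left 16842. The fit, on log2(TPM + 1) of the 12 libraries, used limma 3.58.1 under R 4.3.3 with 1 mean for each of 6 groups and a trended variance, two-sided, with Benjamini-Hochberg adjustment over all genes tested and a threshold of 0.05; the code was tested on simulated data. Changes are log2 differences on the log2(TPM + 1) scale, which understates those of low genes. The labels do not call the replicates separate cultures, so each p measures only how far these samples spread, which may be technical. Deviations of same-numbered replicates from their group means correlated between all 15 pairs of groups (0.37 to 0.75), so the numbers pair the samples and each fit was repeated with the replicate number as a block. Named genes were members called in any induced against untreated comparison or in a difference between lines, the 2 with the highest mean in each class and, of other lists, at most the 6 largest called changes; others named in passing were chosen after their values were seen. Some genes that the rule names in other lists are counted there and not reported here. Members and lists were chosen with earlier results of these data known, so no p is given for a list or a class total. Shared stretches are the share of a gene's 50-base windows found in another member's GENCODE v29 transcripts. Promoters come from RefSeq tables (GRCh38.p14), 250 bases before to 50 after the start.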

Additional observations from a re-analysis of the deposited data

Results flagged for a closer look

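The change with induction differed between the shRCOR2 and shRCOR1 lines, by a test of the difference itself (limma with Benjamini-Hochberg adjustment over all genes), for 11 members, each with the shRCOR2 change above the shRCOR1 change. H1-2, the linker gene with the highest level, differed by 2.17 ± 0.49 (SE, log2). H2AC6 differed by 2.11 ± 0.50 and H2AC13 by 1.68 ± 0.21. The H2B genes H2BC5, H2BC12 and H2BC7 differed by 1.87 ± 0.37, 1.32 ± 0.30 and 1.13 ± 0.27. H3C10 differed by 1.88 ± 0.39. The H4 genes H4C14 and H4C15 differed by 1.90 ± 0.42 and 1.60 ± 0.43, and H4C12 and H4C11 by 1.30 ± 0.24 and 1.20 ± 0.22. H4C14 with H4C15 and H4C11 with H4C12 are near-copies, so these 4 are not separate signals. H2BC7 passed the filter on low values only through the induced shRCOR2 libraries, where it was high. Of the 11, only H2AC13 was called in every fit with 1 library left out.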

How the results depend on the processing

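With the replicate block the number of members called was 26 in the shRCOR2 line, 11 in the shRCOR1 line, 22 for the difference between those lines, and 3 and 6 for the shRCOR2 and shRCOR1 differences from shCTRL, against 15, 4, 11, 0 and 0 without it; all calls made without the block were also made with it. Without a filter on low values 8, 2 and 6 members were called in the shRCOR2 line, the shRCOR1 line and their difference, with 64 tested, and with a TPM minimum of 5 there were 8 in the shRCOR2 line, where 18 were tested. With median-of-ratios scaling the shRCOR1 line had 7 and the difference 17, and with quantile normalization 7 and 17. With only the compared lines fitted, the shRCOR1 line had 1 and the difference 19. Without a variance trend, the shRCOR1 difference from shCTRL had 1. The shares of all genes called under these settings, other than the block, are not given here, so the shifts are not read as particular to the members. The cause of these shifts was not tested, beyond the number of members or libraries each setting leaves. Leaving out 1 library at a time gave 2 to 18 member calls in the shRCOR2 line, 0 to 9 in the shRCOR1 line, 2 to 18 for their difference, 0 to 2 for the shRCOR1 difference from shCTRL, and 0 to 0 elsewhere. The number of all genes called in the shRCOR2 line, the shRCOR1 line and their difference also moved with the library left out. With 1 library left out, the log2 ratio of the member totals was 0.84 to 1.05 in the shRCOR2 line. It was −0.70 to −0.37 in the shRCOR1 line and −0.10 to 0.56 in the shCTRL line. No change of a member called in any comparison turned its direction under any setting tried, and the median of the members kept its sign in the shRCOR2 line (0.63 to 1.03), the shRCOR1 line (−0.31 to −0.22) and their difference (0.80 to 1.29) under every scaling. The files hold no read counts, so the limit that depth sets on the low members cannot be given as an interval.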
